A study of Mus musculus with 9 samples.

Results

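The H3K4me1 list of the study holds 7669 regions of the mouse genome (build mm9), each given with its position, length, tag count, fold enrichment and closest gene. Every region of the list was used. It is the longest of 3 deposited region lists, which hold 14844 entries in all, the others being 3949 H3K27me3 regions and 3226 T-bet peaks. The list came from H3K4me1 ChIP-seq of Tbx21-KO and of WT T helper 1 (Th1) cells, 1 library per genotype. It gives 1 tag count per region and names no genotype in which a region is stronger, so no difference of the mark between Tbx21-KO and WT cells can be read from it.

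The Tbx21-KO cells came from C57BL/6 mice that were Tbx21-/- and carried the T-bet-ZsGreen reporter, in which a fluorescent protein reports expression from the T-bet gene. The WT cells came from C57BL/6 mice with the same reporter. For both, naive CD4+ T cells (CD62L high, CD44 low, and negative for CD25 and ZsGreen) were sorted. They were then activated through CD3 and CD28 with irradiated splenocytes freed of T cells, under IL-2, IL-12 and an antibody against IL-4. ZsGreen-positive cells were sorted and expanded further under Th1 conditions, so cells of both genotypes had switched the reporter on. The ages of the mice, the deleted part of Tbx21 and whether mice were pooled are not given in the labels. Crosslinked chromatin was cut with micrococcal nuclease into mostly single nucleosomes before precipitation. Beside it stood RNA-seq with 2 libraries per genotype and T-bet ChIP-seq with 1 WT library. The depth of the libraries cannot be had from the lists, and with 1 library per genotype no region value has a replicate error.

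H3K4me1, monomethylated lysine 4 of histone H3, is written by the MLL3 and MLL4 methyltransferase complexes and marks enhancers, both active and primed. It usually lies beside the nucleosome-free site where transcription factors bind, and at active promoters it gives way to trimethylation of the same lysine. T-bet, the product of Tbx21, is the T-box transcription factor that directs CD4+ T cells to the Th1 fate and switches on Ifng, the gene of interferon gamma. Locus-wide groups of enhancers are common at the genes that define a T cell lineage.

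Markers of cell types were looked up among the closest genes, which cannot check the identity of the cells. All 6 Th1 markers were the closest gene of at least 1 region, with 51 regions in all, of which Ifng had 35, the chemokine receptor gene Cxcr3 7 and the interleukin 12 receptor gene Il12rb2 4. All 6 Th1 markers were also on the authors' list of genes lower in Tbx21-KO, of which 70.1% had a region. Of 4 general T cell markers only Cd2 had regions (2), while Cd3e, Cd4 and Lck had none in cells sorted as CD4+. No region named any of 4 B cell markers or of 3 erythroid markers. Of 5 myeloid and dendritic markers Itgax had 2 regions and Itgam 1, and of 4 CD8 T and NK markers Klrb1c had 4. Over all protein-coding genes 17.2% had a region, so in sets this small a lack of regions does not set a cell type apart. A marker without a region could still differ in RNA. Cd79a had 5.36 FPKM in Tbx21-KO and 0.722 FPKM in WT cells, and Cd74 had 77.4 and 17.3 FPKM. Cd8a had 19.1 FPKM in Tbx21-KO and 39.6 FPKM in WT cells. The other markers outside the Th1 set were on neither expression list. How the authors chose the listed regions is not stated in the list. Tbx21 itself was the closest gene of a single region, chr11:96957226-96960731, of 3506 bp with 169 tags and a fold enrichment of 4.54, at 31392 bp from the nearest T-bet peak. In the authors' deposited table Tbx21 had 124 FPKM in Tbx21-KO cells and 271 FPKM in WT cells. As the deleted part is not given, this value does not check the genotype.

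Most H3K4me1 regions were under 1 kb. The median length was 688 bp, with quartiles of 462 and 1089 bp and a range of 150 to 8513 bp, and all regions together covered 6998782 bp. H3K27me3 regions had a median of 509 bp and T-bet peaks of 349 bp. Regions of 1 kb or more made up 29.0% of the H3K4me1 list (2224 regions), against 10.3% of the H3K27me3 list (407) and 0.279% of the T-bet list (9). A region held a median of 27 tags (8 to 615), which per length is 39.9 tags per kb (18 to 132). The fold enrichment, the authors' own ratio per region, had a median of 6.91 and ran over 2.53 to 38.7.

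Long regions were more densely tagged but carried lower fold enrichments. The 2310 regions under 500 bp (30.1% of the list) had a median of 34.3 tags per kb and a fold enrichment of 9.88. The 63 regions of 4 kb or more (0.821%) had 69.4 tags per kb and a fold enrichment of 3.79, and the classes between them followed in order on both measures. Over the 7669 regions, length had a Spearman rank correlation of 0.41 with tags per kb and of -0.63 with fold enrichment, both given as descriptions of 1 list. The H3K27me3 list showed 0.15 and -0.61 for the same pairs. Fold enrichments also took repeated values. The commonest was 7.41, shared by 166 regions, then 13.11 with 125, 11.24 with 103 and 14.98 with 99. The 873 regions at the 10 commonest values had a median length of 442 bp, while the other 6796 had one of 724 bp. Ranking by fold enrichment thus picked other regions than ranking by length or tags.

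**Figure D1:**
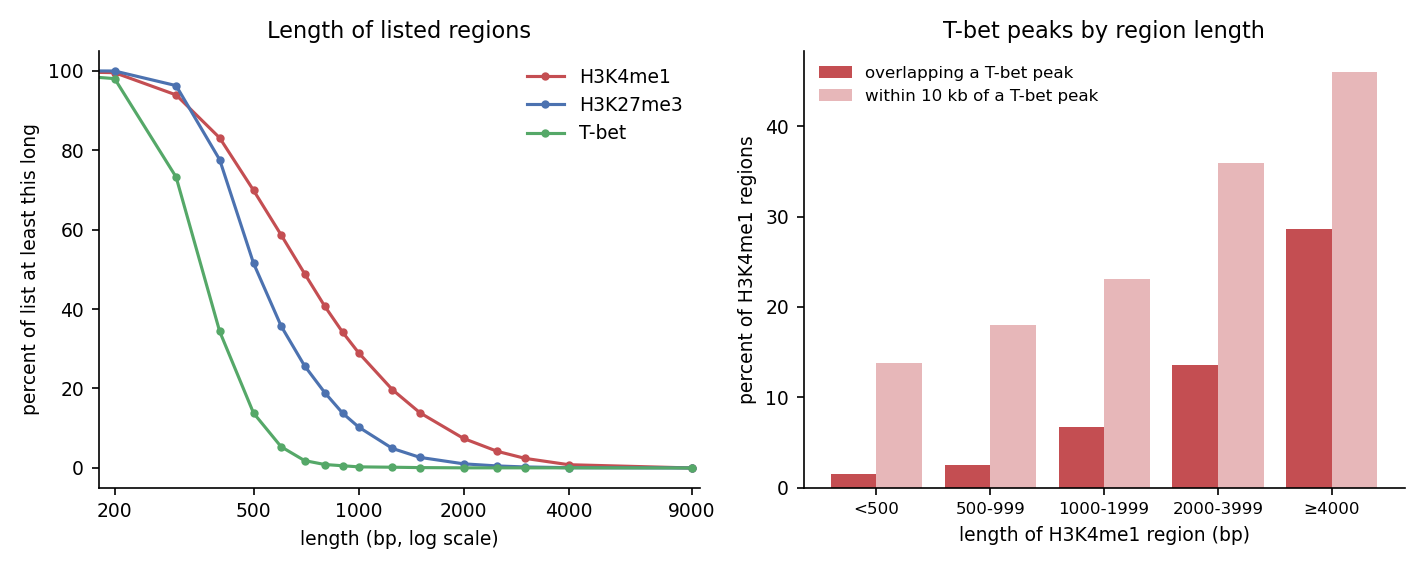
Left, the percent of each list (H3K4me1, H3K27me3, T-bet) at least as long as the length on the horizontal log axis. Right, the percent of H3K4me1 regions in 5 length classes that overlap a T-bet peak or lie within 10 kb of one; the overlapping share is 1.52% under 500 bp and 28.6% at 4 kb or more.

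The longest region, chr16:10770728-10779240, lay closest to Socs1, the gene of a protein that damps cytokine signalling through JAK kinases. It was 8513 bp long, held 615 tags (72.2 per kb) with a fold enrichment of 3.19, overlapped a T-bet peak and had no other H3K4me1 region within 118354 bp. The second longest, chr4:134718646-134726783, lay closest to Runx3, the gene of a Runt-domain factor that works with T-bet at Ifng. It was 8138 bp long with 490 tags, and the nearest other region lay 2538 bp away. Regions closest to 6430531B16Rik (7215 bp, 585 tags), Rin3 (7028 bp, 517 tags) and 4930544D05Rik (6828 bp, 346 tags) came next. Rin3 encodes an exchange factor for the small GTPase Rab5. By tag count the 5 leading regions also took in those of 4933433H22Rik (513 tags) and Sh3bp2 (500 tags), the gene of an adaptor protein of immune receptor signalling.

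The most densely tagged region, chr7:87558435-87560064, lay closest to Furin, which encodes a proprotein convertase. It held 215 tags over 1630 bp, or 132 tags per kb, and the nearest other region lay 28 bp away. Furin had 7 regions of 1051, 2153, 3734, 1630, 5954, 3301 and 3695 bp in order of position, and 4 of them stood in a single run. All 7 were longer than the median of the list. The authors' deposited table gave Furin 453 FPKM in Tbx21-KO cells and 1010 FPKM in WT cells, a log2 ratio of -1.19. Regions at Gpr132 (130 tags per kb), a G protein-coupled receptor gene, Pgs1 (126), Sgip1 (119) and Sema4d (119), a semaphorin of lymphocytes, came after it.

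The highest fold enrichments belonged to small regions. The region closest to Fzd9, a Wnt receptor gene, had 38.7 with 40 tags over 618 bp. The region closest to Mctp2, a gene for a membrane protein with C2 domains, had 37.3 with 24 tags over 458 bp. Ccdc55 (35.6, 27 tags), Ncoa6 (33.7, 26 tags) and Lrrc28 (33.3, 23 tags) followed. None of these 5 was among the 5 longest or the 5 with most tags.

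Regions were gathered along chromosomes. The gap between neighbouring regions had a median of 54199 bp. Its quartiles were 9511 and 210006 bp, and the widest gap spanned 34680660 bp. Of all regions, 3058 (39.9%) had another within 10 kb and 1350 (17.6%) within 1 kb, while 97 (1.26%) lay over 1 Mb from any other. Where gaps of at most 10 kb joined neighbours into a run, the list fell into 5715 runs. A single region made up 4611 of these, 378 runs held 3 or more, and 27 runs held 8 or more with 298 regions between them. Gaps inside the runs of 8 or more had a median of 1485 bp, and those inside pairs had 2104 bp. Regions standing alone had a median length of 651 bp and 39.2 tags per kb, and those in runs of 8 or more had 805 bp and 42.3 tags per kb, so regions in long runs were somewhat longer and only slightly denser.

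The run with the most regions lay at Nod1, which encodes an intracellular sensor of bacterial peptidoglycan. It held 21 regions over 57405 bp (chr6:54867698-54925102), which covered 31.8% of that span, with lengths of 227 to 2452 bp and a median of 750 bp. The next held 18 regions over 67936 bp at Gas7, a gene for a protein that binds the cytoskeleton, with 36.5% covered. At Runx3 17 regions stood over 81965 bp with 59.4% covered and a median length of 2281 bp. At 5031425F14Rik 16 regions stood over 59650 bp with 26.4% covered. At Foxp1, the gene of a forkhead factor that keeps naive T cells quiescent, 14 regions stood over 66501 bp with 17.1% covered. The Runx3 run thus combined long regions with close spacing, whereas the other 4 had median lengths between 616 and 1121 bp.

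Runs rarely mixed closest genes. Of 1104 runs of 2 or more regions, 107 named more than 1 gene, for example a run of 13 regions shared by Atp6v0e and Ergic1. On a wider scale, 1441 windows of 1 Mb held at least 1 region, with a median of 4 among them, and 26 held 20 or more. Dense stretches included Ifng with its neighbour Dyrk2, which had 60 regions over 592 kb of chromosome 10. The stretch of Sulf2, 5031425F14Rik and Prex1 on chromosome 2 had 75 regions over 665 kb, of which 65 named these genes.

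The 7669 regions named 4166 closest genes, a mean of 1.84 regions per gene, and 12 entries whose gene name had turned into a date were not matched. Names matched 3763 protein-coding genes, which is 17.2% of the 21900 such genes of the RefSeq table. At least 2 regions were found at 6.23% of the 21900 and at least 5 at 0.963%. Among the 3763, 2399 genes (63.8%) had 1 region, 1019 had 2 or 3, 276 had 4 to 7, 59 had 8 to 15 and 10 had 16 or more. The 417 genes with the most regions held 33.1% of the list, and the leading 20 genes held 396 regions (5.16%).

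Foxp1 had the most regions, 38 between chr6:98963945 and 99403181, with lengths of 338 to 3849 bp, and 13 of them lay within 10 kb of a T-bet peak. The authors' deposited table gave Foxp1 6.58 FPKM in Tbx21-KO cells and 13.8 FPKM in WT cells. Ifng had 35 regions over 265 kb, of which 18 lay within 10 kb of a T-bet peak. Its deposited level was 19.5 FPKM in Tbx21-KO cells and 1011 FPKM in WT cells. As RNA-seq was made on bulk cells, fewer cells of a type and less RNA per cell cannot be told apart in these values. Dyrk2, a kinase gene beside Ifng, had 25 regions over 323 kb with 2 near a T-bet peak, and 16 FPKM in Tbx21-KO cells against 45.2 FPKM in WT cells. Ifng and Dyrk2 thus differed in how many of their regions had a T-bet peak nearby.

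Nod1 packed 22 regions into 72.8 kb, 17 of them within 10 kb of a T-bet peak. Its deposited level was 0.234 FPKM in Tbx21-KO cells and 5.66 FPKM in WT cells. Dennd4a, which encodes an activator of a Rab GTPase, had 19 regions over 64.4 kb, 10 of them near a T-bet peak, with 3.14 FPKM in Tbx21-KO cells and 23 FPKM in WT cells. Chst11, a chondroitin sulfotransferase gene, had 19 regions over 221 kb and Etv5, an ETS factor gene, had 13 over 127 kb. Neither had a region within 10 kb of a T-bet peak. Both stood on the authors' list of genes lower in Tbx21-KO, Chst11 with 6.47 FPKM in Tbx21-KO and 17.5 FPKM in WT cells and Etv5 with 10.8 FPKM in Tbx21-KO and 35.2 FPKM in WT cells. Prex1 (17 regions), an activator of Rac GTPases, and Sulf2 (14), a heparan sulfate sulfatase, were on that list too, with log2 ratios of -1.43 and -4.67.

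The other 11 of the 20 genes were on neither expression list, and none of the 20 was on the list of genes higher in Tbx21-KO. They were 5031425F14Rik (34 regions), Gas7 (31), Runx3 (21), Fam49a (16), Bcl2l11 (15), Sp4 (14), Tle3, Vps8 and Zfp386 (13 each), and Cmklr1 and Bcl11b (12 each). Bcl2l11 encodes the pro-apoptotic protein Bim, Tle3 a co-repressor, Cmklr1 the chemerin receptor, and Bcl11b a factor that T cells need to commit to their lineage. Spacing within these sets was uneven. Runx3 regions covered 37.7% of their span of 144 kb, whereas Bcl11b regions covered 2.34% of 665 kb and Zfp386 regions 0.554% of 1148 kb.

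**Figure D2:**
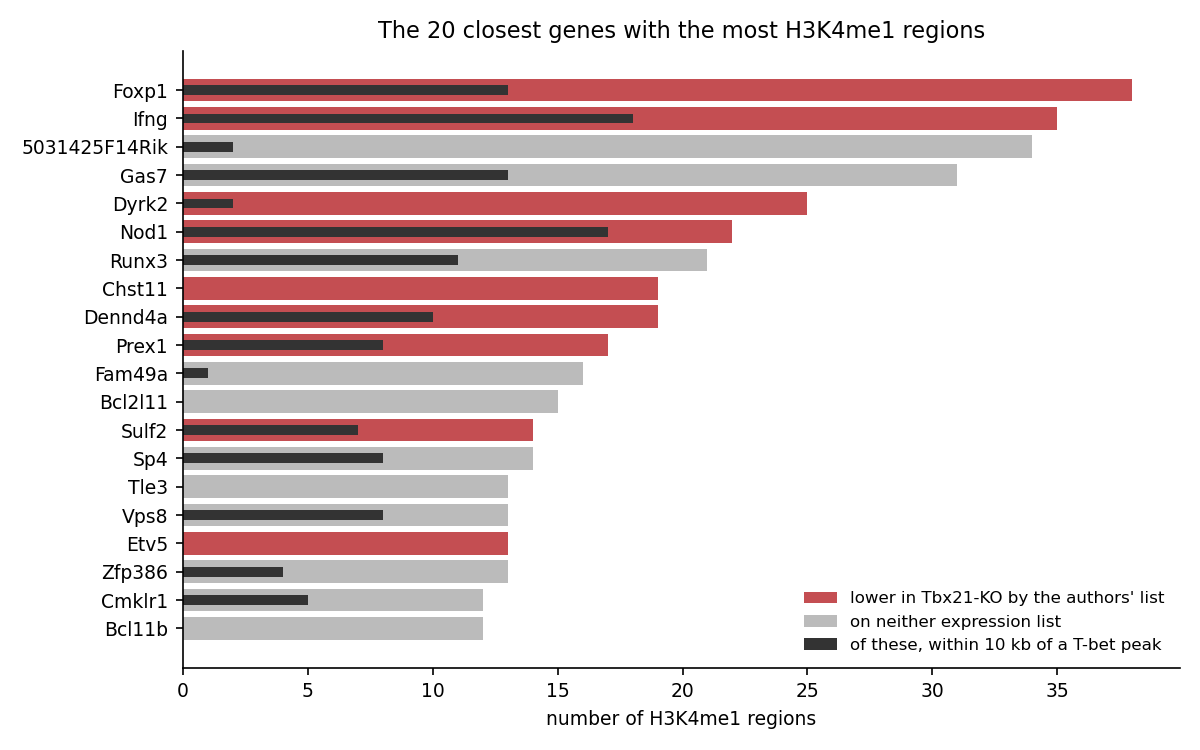
Bars give the number of H3K4me1 regions for the 20 closest genes with the most, red where the authors list the gene as lower in Tbx21-KO and grey where it is on neither expression list; the dark inner bar counts those within 10 kb of a T-bet peak. Nod1 has 17 of 22 near a peak, and Chst11, Bcl2l11, Tle3, Etv5 and Bcl11b have 0.

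Density differed between chromosomes. Each of the 19 autosomes and X held regions, and none was listed on Y. Density was counted per Mb of the stretch between the first and the last entry of the 3 lists on a chromosome, with exact Poisson 95% intervals that cover counting error only. Autosomes together had 3.18 regions per Mb. Chromosome 11 had the most, 4.60 per Mb (interval 4.22 to 5.00), followed by chromosome 19 with 4.46 (3.93 to 5.04), and their intervals overlapped. Chromosome 3 had the fewest among autosomes, 1.95 per Mb (1.74 to 2.18). Over the 19 autosomes the density of H3K4me1 regions had a rank correlation of 0.77 with that of H3K27me3 regions and of 0.83 with that of T-bet peaks, as a description of lists that share the same genes and chromosomes.

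Chromosome X had 61 regions, or 0.377 per Mb (0.288 to 0.484). Autosomes were 8.44 times as dense as X for H3K4me1 regions, against 11.1 times for H3K27me3 regions and 4.05 times for T-bet peaks. A low density on X was thus shared by all 3 lists. X regions had a median of 462 bp, 34.5 tags per kb and a fold enrichment of 9.05, so they were shorter and less densely tagged than the list as a whole. Of the 61, 9 named G530011O06Rik and 7 named Cxcr3, the gene of a chemokine receptor typical of Th1 cells.

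The 7 regions of Cxcr3 lay between chrX:98925442 and 98937553, 12112 bp apart end to end. Their lengths were 741, 839, 3046, 1321, 719, 361 and 389 bp in order of position, with 22, 23, 108, 60, 16, 10 and 10 tags. The fourth, of 1321 bp, overlapped the gene's T-bet peak, and the other 6 lay 911 to 6225 bp from it. Per length, the region over the peak had 45.4 tags per kb and the others had 22.3 to 35.5. The authors' deposited table gave Cxcr3 0.357 FPKM in Tbx21-KO cells and 26.3 FPKM in WT cells.

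Clustering also varied by chromosome. Runs of 3 or more took in 30.1% of the regions of chromosome 10, which holds Ifng and Dyrk2, and 28.1% of those of chromosome 2. On chromosome 18 they took in 4.64% of 194 regions, the lowest share of any chromosome.

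**Figure D3:**
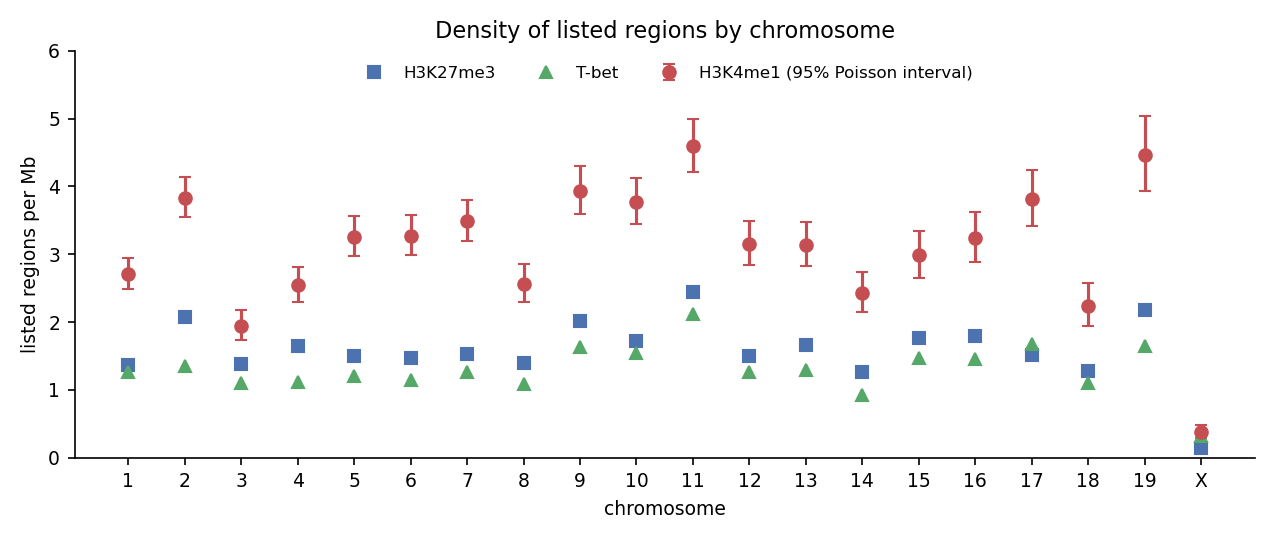
Points give listed regions per Mb for each chromosome, with exact Poisson 95% intervals for H3K4me1 (red) beside H3K27me3 (blue) and T-bet (green). H3K4me1 runs over 1.95 to 4.60 per Mb on autosomes and is 0.377 on X.

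The kinds of closest genes were read from 23 gene lists, each set beside the 17.2% of all protein-coding genes that had a region. These lists were chosen with earlier results of these data known, so their shares and order describe the lists and give no independent evidence. The 95% intervals of these shares are exact (Clopper-Pearson) and cover no more than counting error. Adhesion and migration genes had the highest share, 29 of 36 (80.6%, interval 64.0 to 91.8%). They included Prex1 with 17 regions, Sipa1l1 with 9, the core 2 glycosyltransferase gene Gcnt1 with 8, the integrin gene Itga1 with 5, and S1pr1, whose receptor guides T cells out of lymph nodes, with 3. Naive and memory genes followed with 16 of 22 (72.7%), among them Foxp1 (38), Foxo1 (8), Bach2 and Btg1 (6 each) and Ets1 (3). The list of phosphatase and MAP kinase regulators, which also holds genes of phosphoinositide 3-kinase signalling, had 28 of 41 (68.3%). Among them were the phosphatase gene Ptprj (9) and the phosphoinositide 3-kinase signalling genes Pik3ap1 (10) and Pik3r1 (7). Of the 16 naive and memory genes with a region, 11 were on neither expression list. The same held for 25 of the 29 adhesion genes and 24 of the 28 phosphatase and kinase regulators. These shares lay below the 95.2% of all closest genes that were on neither list.

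Th1 genes had 27 of 40 with a region (67.5%, interval 50.9 to 81.4%) and 148 regions in all. After Ifng and Runx3 these were led by Hopx (12), a homeodomain protein of differentiated Th1 cells, Id2 (11), an inhibitor of E proteins, and Furin and Cxcr3 (7 each). Counted by expression list, of 20 Th1 genes on the authors' list of genes lower in Tbx21-KO, 16 had a region, beside 70.1% of all genes so listed. Of 18 Th1 genes on neither list 10 had one, beside 16.6% of all coding genes on neither list. Hopx had 9 of its 12 regions within 10 kb of a T-bet peak, and its deposited level was 6.13 FPKM in Tbx21-KO cells and 115 FPKM in WT cells. Lineage transcription factors had 28 of 48 (58.3%), with Runx2 (11), Bach2 and Irf8 (6 each) beside Runx3, Id2 and Hopx.

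Genes of other helper programmes also had regions. Of Th2 genes 17 of 36 (47.2%) had one, with Gata3, the Th2 master regulator, and Il1rl1, the interleukin 33 receptor gene, at 5 each, and Ccr4 and Ptgdr2 at 4 each. The list mixes directions, since 14 of its genes were listed as higher in Tbx21-KO, 6 of them with a region, and 2 as lower, both with a region. Over all genes so listed, 23.8% of the higher and 70.1% of the lower had a region. Regulatory T cell genes had 12 of 22 (54.5%), none with 5 or more regions. Follicular helper genes had 11 of 22 (50.0%) and Th17 genes 7 of 22 (31.8%, interval 13.9 to 54.9%). The most regions in both of these lists, 10, belonged to Il6st, the shared signalling receptor of the interleukin 6 family.

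Signalling and surface molecules stood between. T cell receptor signalling genes had 21 of 40 (52.5%), among them Pag1 (10), Cblb (8) and Txk (5), while the kinase gene Lck had none. Costimulatory and inhibitory receptors had 16 of 30 (53.3%), led by Slamf7 (10), Cd28 and Crtam (3 each). Cytokine receptors had 21 of 42 (50.0%). Cytotoxic and NK receptor genes had 19 of 40 (47.5%), with Slamf7, Fasl (7), Gzma (5) and Klrg1 (4). Of the 19 cytotoxic genes listed as lower in Tbx21-KO 7 had a region, beside 70.1% of all genes so listed, and of the 21 on neither list 12 had one, beside 16.6% of all coding genes on neither list. TNF family genes had 17 of 36 (47.2%), and chemokines and their receptors 16 of 37 (43.2%), with Cxcr3, Ccl3 and Ccr4 in front. CD8 T and NK markers had 6 of 12 (50.0%, interval 21.1 to 78.9%), with Gzma at 5 and Klrb1c at 4.

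The shares of the remaining lists lay nearer to the 17.2% of all coding genes. Interferon response genes had 10 of 45 (22.2%, interval 11.2 to 37.1%), most of them with 1 region, apart from Irf8 (6), Irf1 (4) and Oasl2 (2). Histone methylation enzymes of H3K4 and H3K27 had 9 of 30 (30.0%) and at most 2 regions each. Myeloid and dendritic genes had 8 of 36 (22.2%). Ribosomal protein genes had 6 of 40 (15%), B cell genes 2 of 14 (14.3%), general T cell and housekeeping genes 2 of 22 (9.09%) and erythroid and platelet genes 1 of 13 (7.69%).

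**Figure D4:**
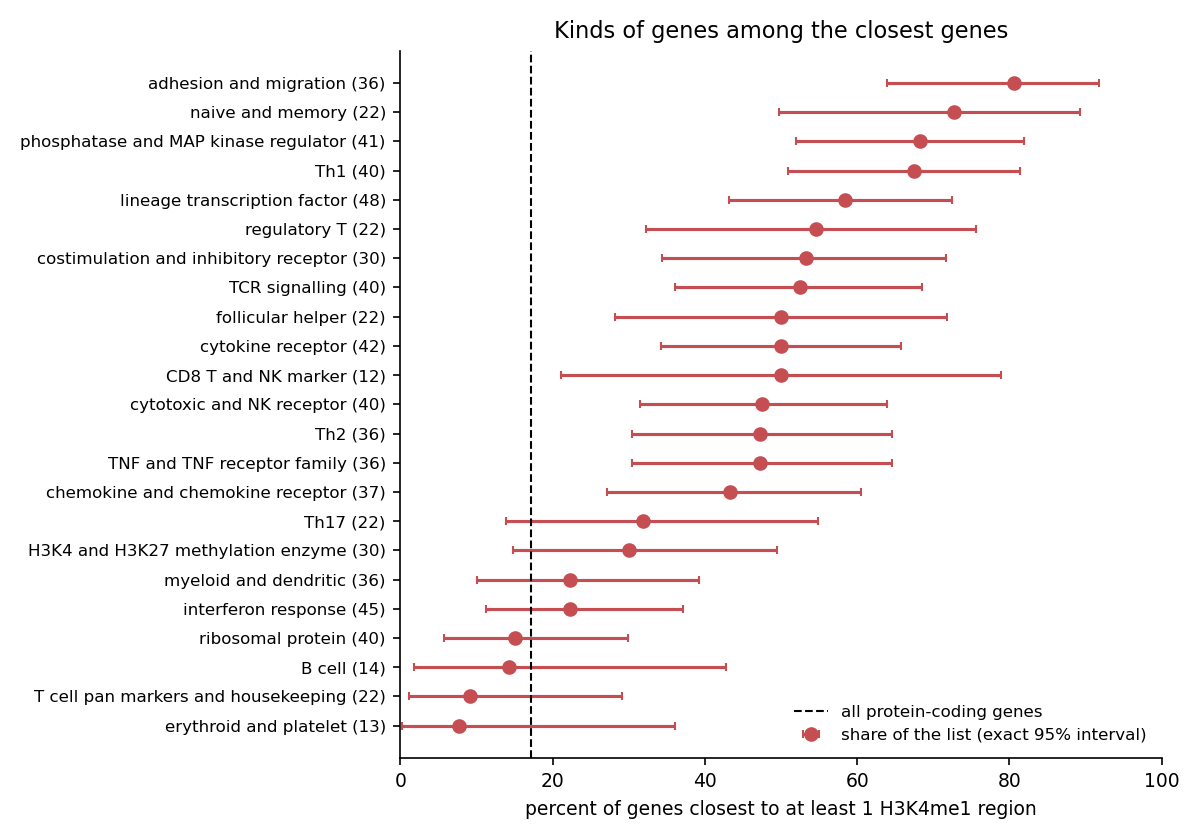
Points give the percent of each gene list, with its number of matched genes in brackets, that is closest to at least 1 H3K4me1 region; bars are exact 95% intervals and the dashed line is the 17.2% of all protein-coding genes. Adhesion and migration genes lead with 80.6% and erythroid and platelet genes come last with 7.69%. The lists were chosen with earlier results of these data known.

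Large receptor families were nearly absent by name. Of 1110 olfactory receptor genes 13 (1.17%) had a region, and of 357 vomeronasal receptor genes 1 (0.280%). Solute carriers had 99 of 389 (25.4%), transmembrane protein genes 42 of 238 (17.6%) and zinc finger protein genes 57 of 422 (13.5%). Genes with a RIKEN clone name took 717 regions (9.36%). By RefSeq biotype, 482 regions (6.29%) named a long non-coding RNA gene and 90 (1.17%) a miRNA gene still listed under that name.

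MicroRNA names were given for 100 regions at 65 genes, and mature sequences of 56 of these genes were taken from RefSeq (GRCm38.p6). A closest miRNA gene is only a position and does not say that the miRNA is expressed. Mir1962 had 9 regions, in the same run as Ptpre, and Mir3066 had 6. Their mature sequences are shown with those of the let-7, miR-148 and miR-181 families, because these families contributed pairs of genes that share a seed, and with miR-155, a regulator of T cell activation. Capitals mark the seed, bases 2 to 8.
miR-1962: aGAGGCUGgcacugggacacau
miR-3066-5p: uUGGUUGCuguagauuaaguag
let-7i-5p: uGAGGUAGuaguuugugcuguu
let-7a-5p: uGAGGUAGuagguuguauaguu
miR-148a-3p: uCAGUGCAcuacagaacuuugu
miR-152-3p: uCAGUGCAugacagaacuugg
miR-181b-5p: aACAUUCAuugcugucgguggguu
miR-181c-5p: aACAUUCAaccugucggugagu
miR-155-5p: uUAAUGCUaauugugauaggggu
Mirlet7i had 2 regions and Mirlet7a-1 had 1. Mir148a, Mir152, Mir181b-1, Mir181c and Mir155 had 1 each.

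H3K4me1 regions that overlapped a T-bet peak were a small share of the list, but the list itself covered little of the genome. Its regions took up 1502 to 4918 bp per Mb on the autosomes and 268 bp per Mb on X. The overlap that such coverage alone would give was not computed, so the shares do not say whether the lists overlap rarely or often. All listed T-bet peaks were used, weak ones included. They held a median of 9 tags and had a median fold enrichment of 2.625, with a range of 0.68 to 17.73. An overlap of at least 1 bp was found for 313 regions, 4.08% of the H3K4me1 list, and for 308 peaks, 9.55% of the T-bet list. Within 10 kb lay 1480 regions (19.3%) and 1005 peaks (31.2%). The median distance was 83.6 kb for an H3K4me1 region to its nearest peak and 37.2 kb for a peak to its nearest region. Overlapping regions had a median of 1299 bp, 54.7 tags per kb and a fold enrichment of 5.43, against 674 bp, 39.5 tags per kb and 6.99 for the rest. Length moved with overlap, and its part was not tested. The overlapping share was 1.52% under 500 bp, 6.77% at 1 to 2 kb and 28.6% at 4 kb or more, and the share within 10 kb of a peak went in the same order, 13.9%, 23.1% and 46.0%. By gene, 1180 names were closest to both a region and a peak, which is 28.3% of the H3K4me1 genes and 47.5% of the T-bet genes. Over all coding genes, 10.4% were closest to a T-bet peak and 17.2% to an H3K4me1 region.

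Runx3 had the most regions that overlapped a T-bet peak, 3 of its 21. Foxp1, Gas7, Nod1 and Zfp386 had 2 each. At Foxp1 and Nod1 that was 2 of 38 and 2 of 22, although both had more than 10 regions within 10 kb of a peak.

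Overlap with H3K27me3, the Polycomb mark of repressed chromatin, was rarer. It was found for 50 H3K4me1 regions (0.652%) and 51 H3K27me3 regions (1.29%), and within 10 kb lay 607 (7.91%) and 562 (14.2%). Sharing a closest gene is a wider measure than overlap, so its shares are not comparable with those above. Names closest to both numbered 1070, which is 25.7% of the H3K4me1 genes and 37.3% of the H3K27me3 genes. Over all coding genes, 11.8% were closest to an H3K27me3 region and 17.2% to an H3K4me1 region. A total of 7 H3K4me1 regions touched both an H3K27me3 region and a T-bet peak. They lay closest to Tmprss6, which had the longest of them (6363 bp, 450 tags), and to Ifitm5, Lpp, Pbx3, Sfpi1 (the gene of PU.1), Spry1 (an inhibitor of receptor kinase signalling) and P2rx4. These 7 had 58.5 to 80.5 tags per kb, above the list's median.

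Of protein-coding genes with a region, 148 of 3763 (3.93%) were on the authors' list of genes lower in Tbx21-KO and 49 (1.3%) on the list of genes higher in it. Of all 21900 coding genes, 0.963% were on the list of lower genes and 0.941% on that of higher genes. The share listed as lower differed widely with the number of regions. It was 1.42% of the genes with 1 region (34 of 2399, interval 0.983 to 1.97%), 5.10% with 2 or 3 (52 of 1019), 14.9% with 4 to 7 (41 of 276) and 23.7% with 8 to 15 (14 of 59). Of the 10 coding genes with 16 or more regions, 7 were on it (70.0%, interval 34.8 to 93.3%). The share listed as higher in Tbx21-KO was 1.63% with 1 region, 0.785% with 2 or 3, 0.725% with 4 to 7 and 0 of 69 above that. At genes with 1 region both shares thus lay somewhat above those over all coding genes, with an interval of 1.16 to 2.22% for the share listed as higher. Genes with more regions were also spread wider, with a median span of 20.6 kb at 2 or 3 regions and 202 kb at 16 or more, and the part of span in these shares was not tested. Whether the authors picked the listed regions by comparing Tbx21-KO with WT cells is not stated. The part of that choice in these shares was not tested either.

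The share with a T-bet peak moved along with it. Of coding genes with 1 region 20.8% were closest to at least 1 T-bet peak, and of those with 8 to 15 regions 79.7% were, beside 10.4% of all coding genes. Counted among genes with a T-bet peak, 2.41% with 1 region, 5.90% with 2 or 3, 18.1% with 4 to 7 and 29.1% with 8 or more were listed as lower in Tbx21-KO. Among genes without a peak these shares were 1.16%, 4.68%, 10.0% and 35.7%, the last from 5 of 14 genes. Without a peak means that no peak named the gene as closest, and its regions could still lie near one. Dyrk2, among these genes, had 2 regions within 10 kb of a T-bet peak. The share listed as lower thus differed with the number of regions in both sets. An H3K27me3 region was also found, as closest to the same gene, at 21.7% of genes with 1 region and 62.7% of those with 8 to 15, though 40% (4 of 10) of those with 16 or more, beside 11.8% of all coding genes.

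**Figure D5:**
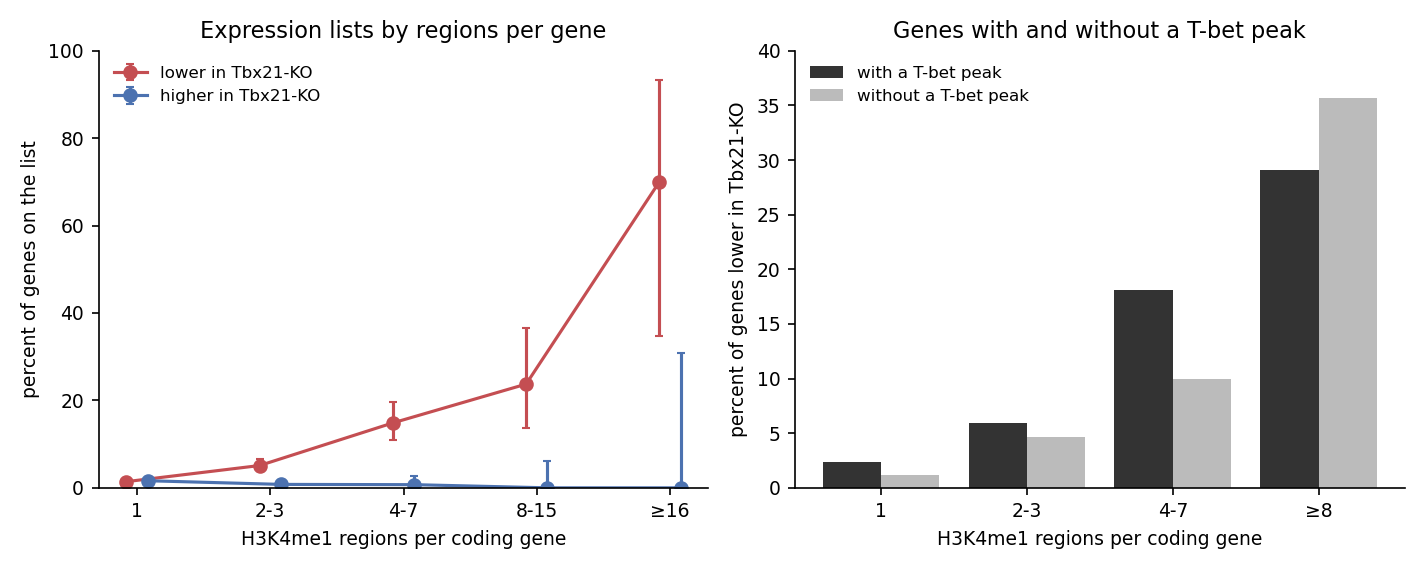
Left, the percent of protein-coding genes on the authors' lists of genes lower (red) or higher (blue) in Tbx21-KO, by the number of H3K4me1 regions per gene, with exact 95% intervals. Right, the percent lower in Tbx21-KO for genes that were (dark) or were not (light) the closest gene of a T-bet peak. With 4 to 7 regions it is 18.1% with such a peak and 10.0% without.

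Within the list of genes lower in Tbx21-KO, the size of the expression difference showed little relation to the number of regions. That list holds no gene with a small difference, which limits the range of ratios compared. Whether the size goes with the number of regions over all coding genes was not tested. Among the 211 coding genes listed as lower in Tbx21-KO, the median log2 ratio of Tbx21-KO over WT was -1.54 for the 63 genes with no region, -1.43 for the 34 with 1 and -1.67 for the 21 with 8 or more. The rank correlation of the number of regions with the size of the ratio was 0.08 over these 211 genes, and with the WT level it was 0.03. Their median level was 5.66 FPKM in Tbx21-KO and 17.6 FPKM in WT cells with no region, and 6.13 FPKM in Tbx21-KO and 22.9 FPKM in WT cells with 8 or more. Fasl (7 regions), the Fas ligand gene, had 2.83 FPKM in Tbx21-KO and 20.1 FPKM in WT cells. Slamf7 (10 regions), a receptor of cytotoxic lymphocytes, had 1.31 FPKM in Tbx21-KO and 22.9 FPKM in WT cells. Nkg7, a cytotoxic granule gene with a single region of 2502 bp that overlapped a T-bet peak, had 42.9 FPKM in Tbx21-KO and 571 FPKM in WT cells. The genes with fewest regions could thus show differences as large as those with many.

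Genes listed as higher in Tbx21-KO had at least 1 region somewhat more often than coding genes in general, but about as many regions per gene. Of 206 coding genes 49 had a region (23.8%), against 17.2% of all coding genes, and 39 of the 49 had 1. They held 66 regions, a mean of 0.32 per gene beside 0.315 over all coding genes and 3.37 over the 211 genes lower in Tbx21-KO. The most were 5 at Itpr2, an intracellular calcium channel gene, with 33.2 FPKM in Tbx21-KO and 16 FPKM in WT cells. Ccr4, a chemokine receptor of Th2 cells, had 4 regions, with 124 FPKM in Tbx21-KO and 23.8 FPKM in WT cells. D18Ertd653e and Irs2, which encodes an adaptor of insulin signalling, had 3 each, and Adarb1, an RNA-editing deaminase gene, had 2. The 66 regions were like the others in size, with a median of 756 bp and 44.4 tags per kb, against 733 bp and 41.0 tags per kb for the 711 regions at genes lower in Tbx21-KO and 684 bp and 39.7 tags per kb for regions at genes on neither list.

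The position within runs gave a like picture by region. Of all regions 9.27% named a coding gene lower in Tbx21-KO. Of regions standing alone 3.71% named a gene lower in Tbx21-KO, of pairs 9.09%, of runs of 3 or 4 14.2%, of runs of 5 to 7 37.4%, and of runs of 8 or more 45.6% (136 of 298). Regions of 1 run mostly name the same gene, so they are not independent of each other. The share within 10 kb of a T-bet peak was 12.5% alone and 47.0% in runs of 8 or more, while the share that overlapped a peak was 3.27% and 5.37%. By distance to the nearest T-bet peak, 8.95% of overlapping regions named a gene lower in Tbx21-KO, 15.8% at 1 to 500 bp, 18.2% from there to 2 kb, 21.1% from 2 to 10 kb, 11.9% from 10 to 50 kb and 5.69% beyond. The share at overlapping regions was thus near that of all regions, and the shares up to 10 kb from a peak were above it.

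Mctp2 shows such a group. It had 11 regions over 67.8 kb, 10 of them in 1 run, with lengths of 203 to 933 bp and 8 to 42 tags, and none overlapped a T-bet peak. The nearest lay 598 bp and 655 bp from one, and the region at 655 bp had the second highest fold enrichment of the list. The deposited level of Mctp2 was 0.958 FPKM in Tbx21-KO cells and 7.11 FPKM in WT cells. T-box factors bind a core sequence written AGGTGTGA, or TCACACCT on the other strand. It was searched on both strands in RefSeq promoters (GRCm38.p6, 250 bases before to 50 after the start of a gene). It was found in 1.35% of 17492 coding genes with a promoter in the table, 1.60% of 2994 with a region, 2.55% of 275 with 4 or more regions (7 genes), and 2.46% of 122 with a region that were lower in Tbx21-KO, which were Mctp2, Sema4a and Nkg7. The promoters of Mctp2 (chromosome 7, minus strand) and Nkg7 (chromosome 7, plus strand) are shown as the ones at the gene with the most and the gene with the fewest regions among these 3, each read along its gene with the match in capitals.
Mctp2: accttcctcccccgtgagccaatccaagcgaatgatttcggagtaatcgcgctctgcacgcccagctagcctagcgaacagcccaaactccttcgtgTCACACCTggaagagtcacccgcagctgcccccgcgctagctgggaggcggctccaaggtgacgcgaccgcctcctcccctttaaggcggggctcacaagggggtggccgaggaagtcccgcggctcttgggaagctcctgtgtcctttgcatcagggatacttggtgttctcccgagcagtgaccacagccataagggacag
Nkg7: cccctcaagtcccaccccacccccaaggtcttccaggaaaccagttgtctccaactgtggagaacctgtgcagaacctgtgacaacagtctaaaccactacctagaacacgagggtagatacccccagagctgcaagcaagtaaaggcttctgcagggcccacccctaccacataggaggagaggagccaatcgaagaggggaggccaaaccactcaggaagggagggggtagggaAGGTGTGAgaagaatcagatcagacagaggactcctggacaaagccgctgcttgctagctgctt
A match is a description of these letters and not a binding site.

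For 40 regions the list also gives the start site of the closest gene, at 20 genes. These regions lay a median of 32.7 kb from it, 27 downstream and 13 upstream, with 29 over 20 kb away and 4 within 5 kb. A single one, at Repin1, held the start site itself. The other 3 within 5 kb named Tcf3, Pfkfb3 and Dnmt3b. The regions with a start site given were thus mostly far from it, but they are a small share of the list, and no source used here says how they were chosen.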

How the data were processed

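Tbx21-KO and WT Th1 cells were profiled as described above, and the labels gave the groups. Build mm9 and the tools TopHat 1.3.3, MACS 1.4.1, DESeq, Bowtie 0.12.7 and CASAVA 1.7 stand in the submitters' processing notes, with no role stated. The deposited region lists give, per the file headers, a position, a count of tags, the authors' fold enrichment (a ratio) and the closest gene; the sources used here do not give the control behind the fold enrichment of the H3K4me1 list. The deposited T-bet list also gives the authors' false discovery rate in percent, which was not used. The deposited expression lists give FPKM per genotype, with duplicates combined by the authors, and the authors' log2 ratio of Tbx21-KO over WT.

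Regions were used as listed. Overlap meant at least 1 bp, and gaps of at most 10 kb joined runs. Names were matched by symbol and synonym to 21900 protein-coding genes of a RefSeq table (GRCm38.p6, names only), and expression lists were matched likewise (211 of 219 lower and 206 of 211 higher in Tbx21-KO). Tag counts are given as listed, and tag densities were set side by side per kb of length. No test was run, as the H3K4me1 list rests on 1 library per genotype, the T-bet list on 1 WT library, and the expression lists give 1 value per genotype. The regions and gene lists were chosen with earlier results of these data known. Named genes were the 20 with the most regions, the 5 longest, most tagged, densest and most enriched regions, the 5 largest runs, the 5 leading genes for overlap with T-bet and among genes higher in Tbx21-KO, up to 6 members per gene list, and Tbx21. Results for some genes under these rules are left out here. Others, such as Nkg7, Sema4a, the miRNAs, the genes of shared H3K27me3 and T-bet overlap and those with a listed start site, were named after their values were seen. The position code was tested on simulated data. The tools were matplotlib 3.10.9, SciPy 1.17.1, numpy 2.4.6 and pandas 2.3.3 under Python 3.11.15.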

Additional observations from a re-analysis of the deposited data

How the results depend on the processing

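Depth and replicate error are unknown, so the limits are those of the list itself. The median length of 688 bp was 499 bp for regions at or above the median fold enrichment, 1076 bp at or above the median tag count, and 727 bp with gaps of at most 1 kb joined. The share of regions with another within the run distance was 31.6% at 5 kb, 67.8% at 50 kb, 30.9% for the higher fold enrichments and 29.0% after joining at 1 kb, beside 39.9%. Runs of 8 or more numbered 10, 99, 11 and 10 under these 4 settings, beside 27. Coding genes with 8 or more regions numbered 17 for the higher fold enrichments and 49 after joining, beside 69. The density of autosomes over X was 10.8 by bases covered and 6.28 for the higher fold enrichments, beside 8.44, and the densest over the sparsest autosome was 3.27 by bases covered, beside 2.36. The share of coding genes with a region was 15.6% by symbol only, 6.23% with at least 2 regions and 10.1% for the higher fold enrichments, beside 17.2%. Of the 23 gene lists 19 lay above that share as counted and by symbol only, 20 with at least 2 regions and 18 for the higher fold enrichments.

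The share of regions at T-bet peaks was 19.3% within 10 kb, 3.48% with an overlap of at least 50% of the shorter, 2.60% for the higher fold enrichments and 2.53% for the more enriched peaks, beside 4.08%. For H3K27me3 it was 7.91% within 10 kb, beside 0.652%. Of genes lower in Tbx21-KO, 52.6% had a region of higher fold enrichment and 54.0% at least 2 regions, beside 70.1%. Of genes higher in Tbx21-KO these were 10.7% and 4.85%, beside 23.8%. Of coding genes with 4 or more regions, 25% were lower in Tbx21-KO when counted on the higher fold enrichments and 19.3% after joining at 1 kb, beside 18%. Distances, fewer regions and fewer peaks change these counts by construction. No paired analysis was possible because the H3K4me1 list came from 1 library per genotype and the expression lists combine the duplicates. No library could be left out for the same reason. Joined regions have no fold enrichment of their own, so that value was not recomputed.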
